A study of Mus musculus with 8 samples.

Results

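The lysyl oxidase family was followed in 8 mouse tumors as the genes Lox, Loxl1, Loxl2, Loxl3 and Loxl4. A gene counted as measured where an array probe set listed it and no other gene, and the probe set with the highest mean over the 8 tumors stood for it. By this rule 4 of the 5 genes were measured, out of 19937 named genes on the array. Loxl2 was not, because its 1 probe set also lists the predicted gene Gm21451, which the RefSeq table places on the same chromosome. The values of that shared probe set are given as such and not as a level of Loxl2.

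Lysyl oxidases are secreted copper enzymes. They oxidize lysine side chains of collagen and elastin to aldehydes, which then react with neighbouring chains to form the covalent crosslinks that stiffen a matrix. Lox and Loxl1 are made as proenzymes that are cut outside the cell, while Loxl2, Loxl3 and Loxl4 carry scavenger receptor cysteine-rich domains in front of the catalytic domain. In mammary tumors the enzymes are known from both fibroblasts and carcinoma cells.

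All 8 tumors arose from 4T1 cells, a mammary carcinoma line of BALB/c mice, placed orthotopically in BALB/c hosts and grown for 18 days. In 4 of them (preirradiated, titled IRR+4T1) the fourth mammary gland had received a single local X-ray dose of 20 Gy before the cells were implanted, and in 4 (nonirradiated, titled 4T1) it had not. The dose was given to the bed and not to the tumor cells, so the comparison addresses how an irradiated bed bears on the tumor that grows in it. Total RNA of whole tumor tissue was read on Affymetrix Mouse Gene 1.0 ST arrays, and the values are log2 RMA signals, on which 1 unit is a doubling. Whether the tumors of a group came from separate mice is not stated, so the p-values measure the spread between these tumors. In whole tissue, more cells of a type and more RNA per cell cannot be told apart. Signals of different probe sets are not compared with each other, because each has its own response.

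The arrays had near-equal medians, between 5.94 and 5.996, as RMA makes them. The small offset followed the groups, with preirradiated medians of 5.982 to 5.996 and nonirradiated medians of 5.937 to 5.977. Epithelial genes that 4T1 cells should carry (11 genes, among them Epcam, Cdh1 and Krt8) had a mean between 9.21 and 9.95 in every tumor, well above those medians. Skeletal muscle genes stood apart in 2 tumors. The mean of 12 such genes was 8.93 in preirradiated tumor 1 and 10.33 in preirradiated tumor 3, against 6.07 to 6.37 in the other tumors. The differences of the enzymes are given with and without these tumors. No probe set passed correction: with limma, 0 of 34738 had a Benjamini-Hochberg adjusted p under 0.05, which is 0% called, and 2015 had an unadjusted p under 0.05. The study's own filter keeps a probe set whose uncorrected p is 0.05 or less, whose log2 difference is 0.4 or more in either direction and whose mean signal reaches 4.0.

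No lysyl oxidase gene passed correction over all probe sets, and the differences between members were not tested. Lox and Loxl1 were 1.74-fold and 1.47-fold higher in preirradiated tumors, and the probe set shared by Loxl2 and Gm21451 was 1.42-fold higher. Loxl3 and Loxl4 were at 0.968-fold and 1.05-fold of the nonirradiated level, with intervals that span no change. Of the 4 measured genes 2 passed the study's filter, both higher, where 0.346% of all named genes did so. Of the same 4, only Loxl1 had groups that did not overlap, where 1.7% of named genes were higher in all preirradiated tumors than in any nonirradiated tumor. The members were chosen with earlier results of these data known, so both counts are a description and not a test.

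**Figure D1:**
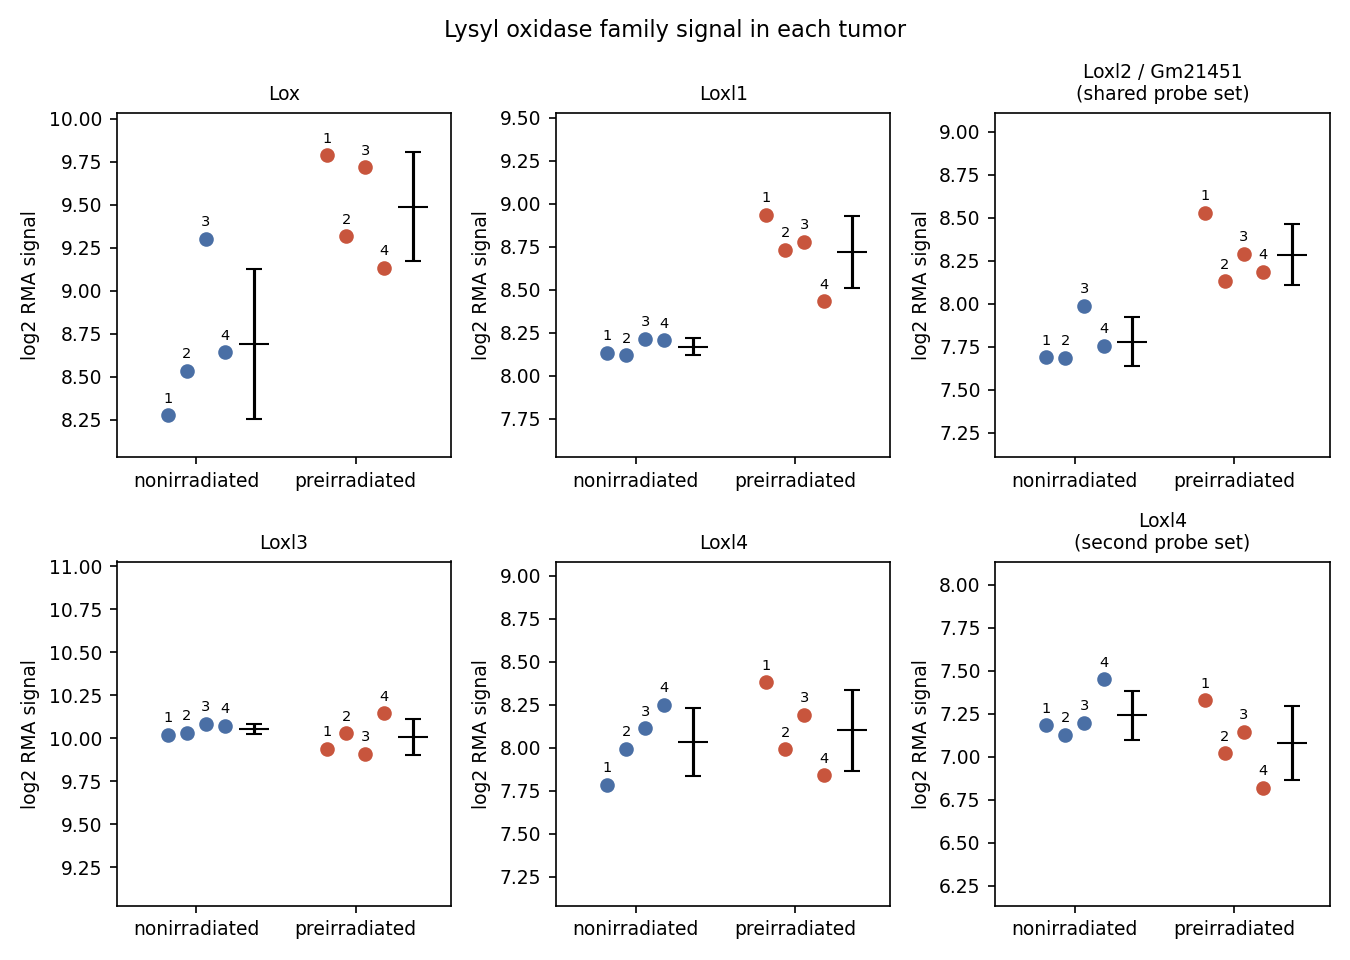
Log2 RMA signal (vertical axis, 2 units high in every panel) of the 4 measured genes, of the probe set shared by Loxl2 and Gm21451 and of the second Loxl4 probe set; points are tumors labelled by their number, and bars are the mean ± SD of the 4 tumors of a group. All preirradiated tumors lie above all nonirradiated tumors for Loxl1 and for the shared probe set, Lox overlaps through nonirradiated tumor 3 at 9.30, and Loxl3 and both Loxl4 panels overlap broadly.

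Lox (probe set 10458894) encodes the founding enzyme of the family, which crosslinks fibrillar collagen and elastin. It read 8.28, 8.54, 9.30 and 8.64 in nonirradiated tumors 1 to 4 and 9.79, 9.32, 9.72 and 9.13 in preirradiated tumors 1 to 4. The groups overlapped, because nonirradiated tumor 3 lay above preirradiated tumor 4 by 0.17 and was level with preirradiated tumor 2. The group means were 8.69 ± 0.44 and 9.49 ± 0.32 (SD, n = 4 each). The log2 difference was 0.80 (SE 0.23, 95% interval 0.27 to 1.33), with a limma adjusted p of 0.763. Lox had the largest difference of the family and also its widest spread, with a range of 1.02 among the nonirradiated tumors alone. An exact two-sided permutation test over the 70 assignments of 8 tumors gave p = 0.0571, where 0.0286 is the smallest p this design allows.

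Loxl1 (probe set 10594066) encodes the family member needed for elastic fiber upkeep. Its nonirradiated tumors lay close together, at 8.13, 8.12, 8.21 and 8.21, and its preirradiated tumors at 8.93, 8.73, 8.78 and 8.43. The lowest preirradiated tumor, number 4, stood 0.22 above the highest nonirradiated tumor, a gap wider than the whole nonirradiated range of 0.097. The log2 difference was 0.55 (SE 0.096, 95% interval 0.33 to 0.77). Its limma adjusted p was 0.595, and the exact two-sided permutation p was 0.0286, the smallest possible. Loxl1 stood in place 11 of the 19937 named genes by limma p, and Lox in place 214, although Lox differed by more.

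The probe set shared by Loxl2 and Gm21451 (10416215) followed the same course. Loxl2 is known for crosslinking the collagen IV of basement membranes and is studied as a secreted enzyme of invasive carcinoma. The shared signal was 7.69, 7.69, 7.99 and 7.76 in nonirradiated and 8.53, 8.13, 8.29 and 8.19 in preirradiated tumors. The groups did not overlap, with a gap of 0.14 between nonirradiated tumor 3 and preirradiated tumor 2. The log2 difference was 0.50 (SE 0.10, 95% interval 0.27 to 0.74), with a limma adjusted p of 0.620. How much of this signal belongs to each of both genes is not known from the array.

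Loxl3 (probe set 10539263), an enzyme with roles in cartilage and muscle development, was the steadiest member. It read 10.02, 10.03, 10.08 and 10.07 in nonirradiated and 9.94, 10.03, 9.91 and 10.14 in preirradiated tumors. The groups overlapped, with preirradiated tumor 4 highest of all and preirradiated tumor 3 lowest. The log2 difference was -0.05 (SE 0.055), and its 95% interval of -0.17 to 0.08 does not reach the study's limit of 0.4 in either direction. The interval lies below those of Lox and Loxl1. In RefSeq the span of Loxl3 overlaps the protease gene Htra2, whose own probe set differed by -0.03 (SE 0.051).

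Loxl4, a matrix enzyme closely related to Loxl2, had 2 probe sets of its own. The brighter one (10467768), which stands for the gene, read 7.79, 7.99, 8.12 and 8.25 in nonirradiated and 8.38, 7.99, 8.19 and 7.84 in preirradiated tumors. The highest tumor was preirradiated tumor 1 and the lowest was nonirradiated tumor 1, and the groups overlapped almost fully. The log2 difference was 0.07 (SE 0.13, 95% interval -0.24 to 0.37). The second probe set (10467766) pointed the other way, from 7.24 ± 0.14 to 7.08 ± 0.21 (SD, n = 4 each), a difference of -0.16 (SE 0.11, 95% interval -0.42 to 0.10). The sign for Loxl4 therefore depends on the probe set, and both intervals include 0.

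**Figure D2:**
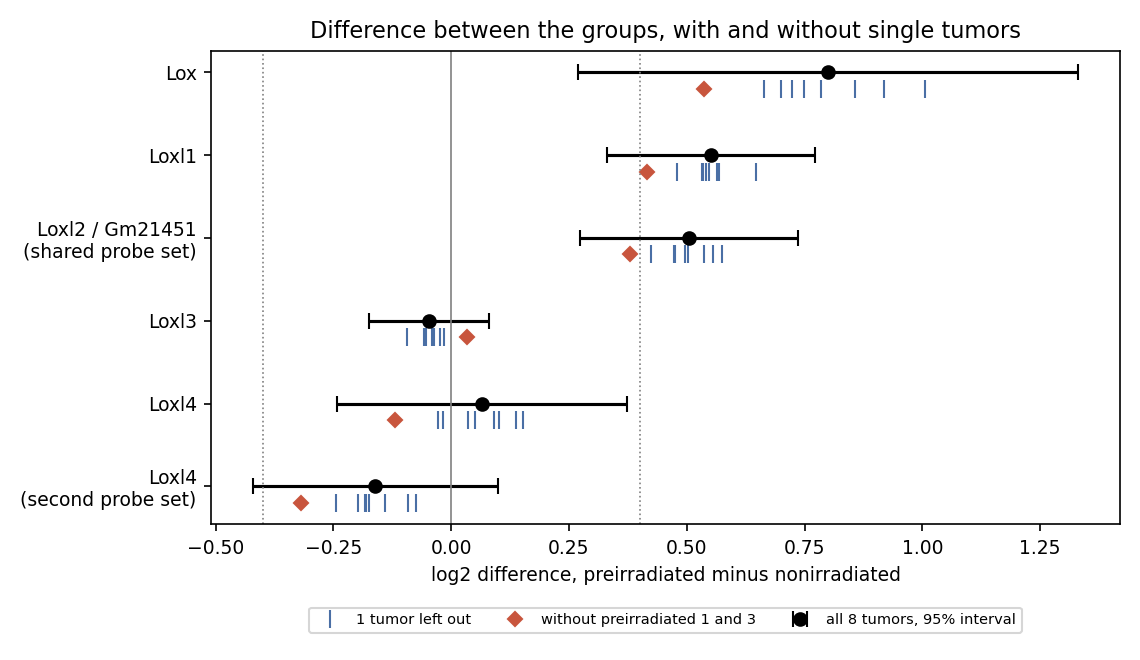
Log2 difference between preirradiated and nonirradiated tumors (horizontal axis) for each probe set: black points with bars are the limma estimate and its 95% interval over all 8 tumors, blue ticks leave out 1 tumor each, red diamonds leave out preirradiated tumors 1 and 3, and dotted lines mark the study's limit of 0.4 in both directions. Lox, Loxl1 and the shared probe set stay to the right of 0 in every setting drawn, and the red diamonds lie at 0.54, 0.41 and 0.38 for these 3. Loxl3 stays between -0.09 and 0.03, Loxl4 between -0.12 and 0.15, and the second Loxl4 probe set to the left of 0, down to -0.32.

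Both muscle-rich tumors were also the highest preirradiated tumors for Lox, Loxl1, the shared probe set and both Loxl4 probe sets, and the lowest for Loxl3. Muscle was not their only mark. Tumors 1 and 3 also had the highest means of all tumors for adipocyte genes (8.27 and 7.04) and fibroblast genes (9.01 and 8.88). All 9 adipocyte genes lay above every nonirradiated tumor in tumor 1. In tumor 3 only Car3 (11.21), Plin4 (6.85) and Lep (5.02) did. Adipoq, named like Lep after its values were seen, was lowest of all tumors there, at 5.16. Which of these marks went with the enzymes was not tested. Without preirradiated tumors 1 and 3, the 4 nonirradiated and 2 other preirradiated tumors remained. The Lox difference was then 0.54 and no longer passed the study's filter (limma unadjusted p = 0.0895). Loxl1 passed narrowly at 0.41 (limma unadjusted p = 0.00311), and the shared probe set at 0.38 missed the change limit. Loxl3 changed sign to 0.03 and Loxl4 to -0.12. The second Loxl4 probe set went from -0.16 to -0.32 (limma unadjusted p = 0.0232), still within the change limit. Leaving out 1 tumor at a time kept Lox between 0.66 and 1.00, Loxl1 between 0.48 and 0.65 and the shared probe set between 0.42 and 0.57, and all of these passed the filter each time. Loxl4 changed sign without nonirradiated tumor 1 (-0.02) or preirradiated tumor 1 (-0.03), and its second probe set ran from -0.24 without preirradiated tumor 1 (limma unadjusted p = 0.0463) to -0.07 without preirradiated tumor 4.

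Within the preirradiated group, Lox, Loxl1 and Loxl4 ordered the tumors alike, from tumor 1 through 3 and 2 to tumor 4, and Loxl3 had tumors 4 and 2 highest. Within the nonirradiated group, tumor 3 was highest for Lox, Loxl1, the shared probe set and Loxl3, and second to tumor 4 for Loxl4. Of the 6 pairs of measured genes, the 3 with Loxl1 were given no pooled correlation, because its groups do not overlap. Lox against Loxl4 had Pearson's r = 0.59 (exact permutation p = 0.126, adjusted over 6 pairs 0.241) and Spearman's rho = 0.60 (exact permutation p = 0.132, adjusted 0.392) over 8 tumors. Without the 2 tumors farthest from the Lox median, r was 0.29. Lox against Loxl3 had r = -0.46 (exact permutation p = 0.256, adjusted 0.256) and rho = -0.40 (exact permutation p = 0.327, adjusted 0.392), and r = -0.76 without the 2 farthest tumors. Loxl3 against Loxl4 had r = -0.52 (exact permutation p = 0.188, adjusted 0.241) and rho = -0.29 (exact permutation p = 0.501, adjusted 0.501), and r = -0.29 without 2. None of these relations passed.

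The genes whose pattern over the 8 tumors was most like that of a member were picked by Pearson's r among all named genes, as a description only, since the tumors share the group difference and the highest of 19936 values will be high. For Lox they were Ccdc80, a secreted matrix protein (r = 0.965), the Wnt ligand Wnt7a (0.962) and the proteoglycan versican, Vcan (0.961). For Loxl1 they were Serpinf1, the secreted pigment epithelium-derived factor (0.993), the sushi-repeat protein Srpx2 (0.992) and thrombospondin 2, Thbs2 (0.989). Ccdc80, Vcan, Serpinf1, Srpx2 and Thbs2 all passed the study's filter as higher, with log2 differences between 0.47 (Serpinf1) and 0.75 (Ccdc80). Picking genes for their likeness to Lox or Loxl1, which both passed as higher, favors this result, so it is no separate evidence. Wnt7a read only 5.33 to 5.61 and differed by 0.12 (SE 0.056). For Loxl3 the nearest were the calcium channel Itpr2 (0.957), Aamp (0.946) and Arfip2 (0.943), and for Loxl4 they were Fsd1l (0.977), Disp2 (0.957) and Prol1 (0.954). None of these 6 passed the filter, and neither did Loxl3 and Loxl4, which they were picked to resemble. Fsd1l and Prol1 read at most 5.03 in all tumors, near the low end of the array. An r of at least 0.9 was reached by 69 genes for Loxl1, 41 for Lox, 45 for Loxl4 and 23 for Loxl3. These were 0.346%, 0.206%, 0.226% and 0.115% of the 19936 genes compared. An r of -0.9 or below was reached by 56, 37, 58 and 12 genes in the same order.

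The substrates of the enzymes were examined beside them. Of 12 fibrillar collagen, collagen IV and elastin genes, 11 were higher and 4 passed the study's filter, all higher, with a list median of 0.12. Over all named genes 47.4% were higher, 0.346% passed the filter as higher and the median was -0.004. The 4 were Col5a2, a chain of collagen V (0.55, SE 0.074), Col3a1 of collagen III (0.61, SE 0.13), Col1a2 of collagen I (0.54, SE 0.094) and, named after its values were seen, Col1a1 (0.49, SE 0.090). Each of them had groups that did not overlap, as 1.7% of named genes did in this direction. Without preirradiated tumors 1 and 3 the number of substrates past the filter was again 4. The other 8 lay between -0.03 and 0.21. Elastin itself, a main substrate of Loxl1 and named here for that role, was 7.56 ± 0.28 in nonirradiated and 7.64 ± 0.27 in preirradiated tumors (SD, n = 4 each), a difference of 0.08 (SE 0.17). The collagen IV chains Col4a1 and Col4a2, substrates of Loxl2 and also named for their role, differed by 0.07 (SE 0.082) and 0.12 (SE 0.091).

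Lysine residues are hydroxylated inside the cell before the oxidases act. The list of 13 measured genes for that step also held genes of other steps, such as Crtap, and none passed the study's filter. The list's median difference was 0.02. Among the lysyl hydroxylases themselves, Plod2, the hydroxylase of the collagen telopeptides, differed by 0.12 (SE 0.14). Plod1 and Plod3, named for their role, differed by -0.01 (SE 0.090) and 0.02 (SE 0.053). Crtap, a subunit of the prolyl 3-hydroxylation complex, was lower in every preirradiated than in any nonirradiated tumor, as 388 of 19937 named genes were. It read 10.43 ± 0.03 in preirradiated against 10.62 ± 0.04 in nonirradiated tumors (SD, n = 4 each). Its difference of -0.19 (SE 0.036) is under the filter's limit. The 4 prolyl 4-hydroxylase genes had 2 higher and 2 lower, 0 past the filter, and P4ha3 differed by 0.33 (SE 0.14).

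Among 12 measured secreted proteins that process lysyl oxidases or bind them or their fibers, 1 passed the filter, 8 were higher and the median was 0.09. The 1 was Ccdc80, at 8.41 ± 0.22 and 9.15 ± 0.29 (SD, n = 4 each). Ccdc80 is a matrix protein and not an activating protease. Postn, periostin, which brings the activating protease to the matrix, was higher in every preirradiated than in any nonirradiated tumor, as 1.7% of named genes were. Its lowest preirradiated tumor read 11.15 and its highest nonirradiated tumor 11.12. The difference of the Postn group means was 0.32 (SE 0.099), short of the filter's change limit. The activating protease, Bmp1, was 11.71 ± 0.09 and 11.79 ± 0.07 (SD, n = 4 each), a difference of 0.08 (SE 0.057). Fibronectin, Fn1, which also binds the proenzyme, differed by 0.02 (SE 0.047). Bmp1 and Fn1 were named for their role.

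Of 10 genes for copper uptake, transport and storage, 5 were higher and 0 passed the filter, with a median of 0.01. Atp7a, the pump that loads copper into secreted enzymes and named for that role, differed by -0.002 (SE 0.045), and the importer Slc31a1 by -0.19 (SE 0.084). Of 9 other crosslinking enzymes and copper amine oxidases, 3 were higher and 0 passed, with a median of -0.02. Aoc3, an amine oxidase of vessel walls and fat, differed by 0.49 (SE 0.24) with preirradiated tumor 1 at 8.22 and the others at most 7.43. The transglutaminase Tgm2 differed by -0.19 (SE 0.091).

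Pathways known to induce Lox showed few differences. Of 13 hypoxia response genes 7 were higher and 0 passed the filter, with a median of 0.02, and Vegfa differed by 0.29 (SE 0.13). Of 13 measured TGF-beta and Hippo genes 6 were higher and 0 passed, with a median of -0.003. Smad7, a feedback inhibitor of TGF-beta signaling, differed by 0.14 (SE 0.050), and the ligand Tgfb1 by -0.09 (SE 0.040). Of 8 mesenchymal transition factors 7 were higher and 1 passed, Prrx1, a homeobox factor of mesenchyme, at 7.91 to 8.06 in nonirradiated and 8.29 to 8.81 in preirradiated tumors. Over all 9 lists 6 of 94 measured genes passed the study's filter, against 0.487% of named genes, and all 6 were higher. Of these 6, 4 were the collagen chains among the substrates. Without preirradiated tumors 1 and 3 the number was 5. The lists were chosen with earlier results of these data known, so these counts are a description and not a test.

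**Figure D3:**
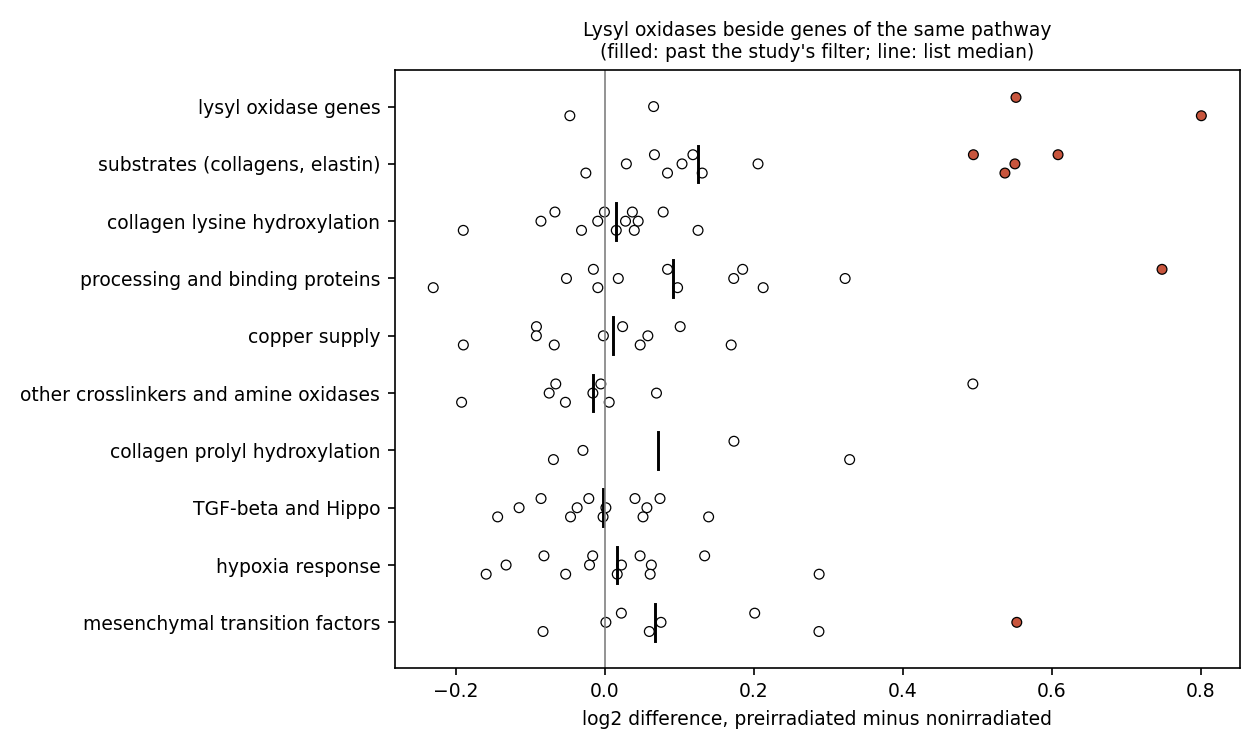
Log2 difference between preirradiated and nonirradiated tumors (horizontal axis) for the 4 measured lysyl oxidase genes and for the genes of 9 pathway lists (rows); each point is a gene, filled points passed the study's filter and black lines are list medians. Lox at 0.80 and Loxl1 at 0.55 lie with Ccdc80 at 0.75, Prrx1 at 0.55 and the 4 collagen chains on the right, while the lists for hydroxylation, copper, TGF-beta and hypoxia have no filled point.

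Markers of other cells differed between the groups as well. Beside the counts that follow, 0.346% of named genes passed the study's filter as higher, 0.487% in either direction, and 47.4% were higher at all. Fibroblast genes (10 of 12 higher, 4 past the filter) had a mean of 8.29 to 8.54 in nonirradiated and 8.61 to 9.01 in preirradiated tumors. Pericyte and smooth muscle genes (8 of 9 higher, 2 past the filter) had a mean of 7.65 to 7.74 and 7.75 to 8.39, a difference of 0.40. This list holds Des, the muscle filament desmin, which read 9.17 and 11.28 in preirradiated tumors 1 and 3 and 6.15 to 6.49 elsewhere. Without Des, a choice made after seeing the data, the other 8 genes differed by 0.21, with means of 7.83 to 7.92 and 7.94 to 8.26. Adipocyte genes (9 of 9 higher, 2 past the filter) had a mean of 6.31 to 6.83 and 6.50 to 8.27. The 2 were Car3 (11.56 and 11.21 in preirradiated tumors 1 and 3, at most 8.41 elsewhere) and Plin4 (6.85 in both, at most 6.02 elsewhere). Adipoq, Cidec, Retn, Plin1, Fabp4 and Lipe, looked at after their values were seen, were highest in preirradiated tumor 1. In preirradiated tumor 3 these lay within or below the nonirradiated range. Epithelial genes (11 of 11 higher, 1 past the filter) ranged from 9.21 to 9.44 and from 9.39 to 9.95. Endothelial genes (8 of 10 higher, 0 past the filter) had a mean of 8.32 to 8.57 and 8.38 to 8.69. Macrophage genes (10 of 10 lower, 1 past the filter) had 10.16 to 10.31 and 9.92 to 10.14. T and NK cell genes (9 of 9 lower, 1 past the filter) had 6.39 to 6.99 and 6.03 to 6.57, and skin genes (4 of 6 higher, 0 past the filter) had 5.42 to 6.35 and 5.47 to 6.44. Their part in the differences of the enzymes was not tested.

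Set against the fibroblast mean of the same array, the members again moved unequally. Lox minus that mean was 0.25 ± 0.35 in nonirradiated and 0.71 ± 0.14 in preirradiated tumors (SD, n = 4 each), with nonirradiated tumor 3 at 0.76 inside the preirradiated range. Loxl1 minus that mean went from -0.27 ± 0.09 to -0.06 ± 0.13 (SD, n = 4 each), with a nonirradiated range of -0.37 to -0.16 and a preirradiated range of -0.19 to 0.12. The shared Loxl2 probe set differed by 0.16 on this scale, with overlap. Loxl3 minus the fibroblast mean was 1.54 to 1.73 in nonirradiated and 0.93 to 1.52 in preirradiated tumors, and Loxl4 minus it was -0.51 to -0.19 and -0.78 to -0.62. On this scale both therefore lay lower in every preirradiated tumor, which does not show a fall of either gene. The fibroblast mean itself was 8.29 to 8.54 in nonirradiated and 8.61 to 9.01 in preirradiated tumors. A gene that did not change would therefore also lie lower on this scale. How many other genes separate the groups in this way was not tested.

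**Figure D4:**
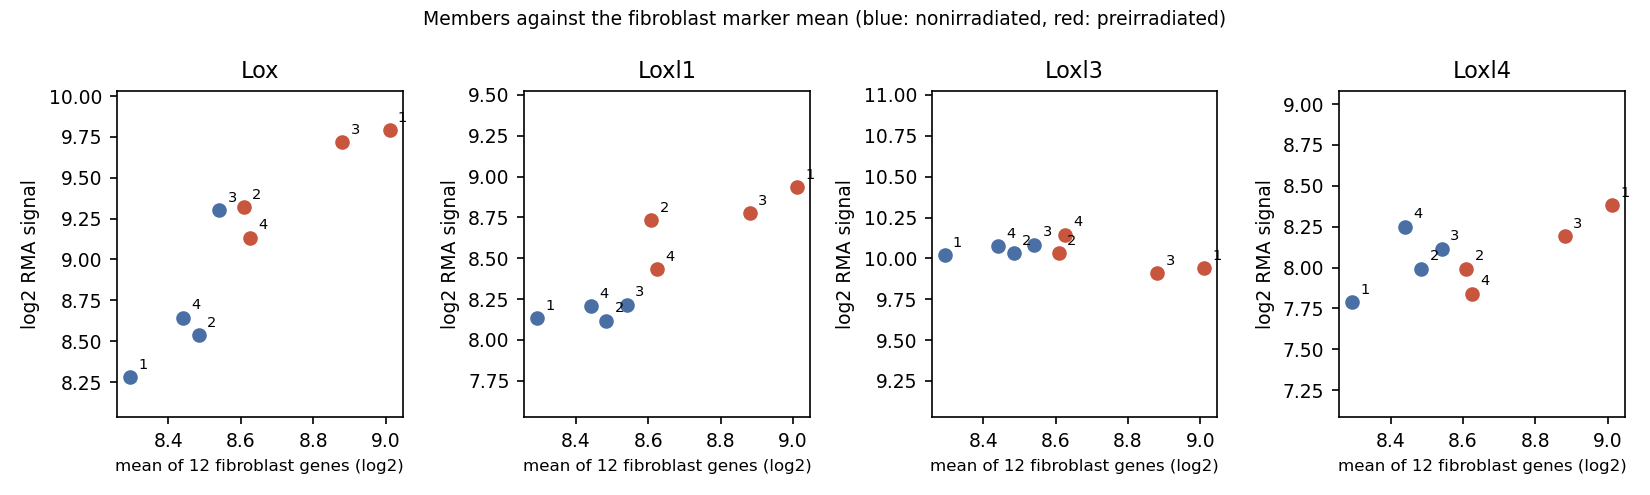
Log2 RMA signal of each measured gene (vertical axis, 2 units high in every panel) against the mean of 12 fibroblast genes on the same array (horizontal axis, log2); each point is a tumor, blue nonirradiated and red preirradiated, with its number. Lox and Loxl1 are highest in preirradiated tumors 1 and 3, where the fibroblast mean is 9.01 and 8.88, whereas Loxl3 stays between 9.91 and 10.14 along the whole axis.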

How the data were processed

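The authors deposited log2 signals, 1 per probe set and tumor, computed by RMA with affy from Bioconductor 2.4, per the series' design text; R 2.15.3 is named in the submitters' processing notes. The chip description file and genome build are not given in the sources used here, so no coordinates are printed. RMA makes arrays alike, so a change in total RNA per tumor cannot be seen, and it understates changes near background.

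Groups came from the sample titles (4 tumors each). Of 34760 probe sets, 34738 with a mean of at least 4.0 were fitted with limma 3.58.1 in R 4.3.3 (lmFit, eBayes, two-sided, Benjamini-Hochberg over all of them), preirradiated minus nonirradiated, with 95% intervals. Symbols came from the platform annotation (21640 probe sets with 1 symbol, 1321 with several, 11799 with none); matching Entrez IDs to RefSeq (GRCm38.p6) changed 0. Genes named were the members, up to 4 per list (the 2 smallest p, the 2 largest differences) and the 3 nearest to each member; others are said to be chosen otherwise. The members and lists were chosen with earlier results of these data known. Correlations were planned for 10 pairs and made for 6, since Loxl2 was not measured alone. The fit was also run on simulated data, with noise drawn independently for each probe set and tumor. That run did not cover variation shared between genes, and no result here rests on it. The number of arrays limits the precision. Alternatives covered the expression limit, variance model, centring, quantile normalization, array weights, replicate numbers, probe sets, thresholds, a permutation test and left-out tumors.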

Additional observations from a re-analysis of the deposited data

Results flagged for a closer look

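Within each group of 4 tumors, a tumor was singled out where its gap to the nearest other tumor, divided by the range of the group, exceeded Dixon's critical value for 4 samples at the 95% level; chance does so for about 1 group in 20. This was looked at in 94 groups of values (members, named pathway genes, nearest genes and cell type means), and 5 were singled out. None was a lysyl oxidase gene. Col5a2 was lowest among the preirradiated tumors in tumor 2, at 7.73. Crtap was highest among the nonirradiated tumors in tumor 4, at 10.68. Vegfa was highest among the preirradiated tumors in tumor 1, at 9.93. Prol1 was lowest among the nonirradiated tumors in tumor 1, at 4.43. The skin gene mean was highest among the preirradiated tumors in tumor 3, at 6.44.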

How the results depend on the processing

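Loxl1 kept its direction and its place past the study's filter in all 19 alternatives tried, between 0.41 and 0.65, and Lox kept its direction in all 19, between 0.54 and 1.00. Lox missed the filter without both preirradiated tumors 1 and 3 (0.54) and by the exact permutation test (p = 0.0571), and the number of members past the filter was then 1 without both tumors and 2 in the other settings, every single tumor left out included. The shared Loxl2 probe set missed it without both tumors (0.38). Loxl3 reversed without both tumors (0.034), and Loxl4 reversed without both (-0.12), without nonirradiated tumor 1 (-0.018), without preirradiated tumor 1 (-0.028) and in its other probe set (-0.16), with single tumors left out giving -0.028 to 0.15. That other probe set was at -0.32 without both tumors and between -0.24 and -0.075 without single tumors. The cause was not tested. Probe sets past the filter numbered 223 (170 higher, 53 lower), 102 with 1 probe set per named gene, where fewer are tested, and 113 with a change limit of 0.5; leaving out 1 tumor gave 181 to 385, with 335 without preirradiated tumor 2 and 385 without preirradiated tumor 4. Centring each array on its median gave 121 higher and 70 lower, and Lox (0.77) and Loxl1 (0.52) then still passed the filter. At an adjusted p under 0.05 the count was 0 in all 18 alternatives. Pathway genes past the filter numbered 5 to 8. The replicate numbers of the titles did not pair the tumors: deviations of same-numbered tumors correlated between -0.289 and -0.075. With the number as a replicate block, Lox (0.80) and Loxl1 (0.55) passed the filter as before. Signal near background limits the genes with low values.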
